A study of Mus musculus with 4 samples.

Results

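The signalling lymphocyte activation molecule (SLAM) family was followed over 10 genes, 9 that encode receptors (*Slamf1*, *Ly9*, *Cd244a*, *Cd84*, *Slamf6*, *Slamf7*, *Cd48*, *Slamf8* and *Slamf9*) and *Sh2d1a*, which encodes their adaptor SAP, out of 19938 genes with a probe set of a single symbol. These genes were grouped by family membership, with earlier results of the same arrays known, and the probe set of a gene was to be selected on the highest mean over the 4 arrays, although each of the 10 genes had only 1. The differences given here therefore describe the family and are no independent evidence that it responded. RNA came from ILC87-Ik1-ER cells, a stable line made by sorting GFP+ cells after transduction of ILC87 with the MigR1:Ik1-ER retrovirus, in which full-length Ikaros-1 is joined to the hormone-binding part of the oestrogen receptor. ILC87 itself came from a thymic tumour of an Ikarosf/f Lck-cre+ mouse, in which Cre driven by Lck deletes the floxed Ikaros gene in T-lineage cells, and it is a line of 1 tumour behind the EtOH and the 4OHT arrays alike. On 2 arrays the cells had received 100 nM 4-hydroxytamoxifen (4OHT), the ligand that brings Ik1-ER into the nucleus, and on 2 arrays its vehicle ethanol (EtOH), both for 24 h. The labels give C57BL/6 as the strain, whereas the study's methods put the Ikf/f Lck-Cre+ mice on a mixed background of strains. The SLAM genes are known to differ in sequence between mouse strains, and which forms the line carries is not given. Cells without Ik1-ER were not analysed here after 4OHT, so that an effect of 4OHT and one of Ik1-ER cannot be told apart.

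SLAM receptors are small membrane proteins of the immunoglobulin superfamily. Most of them bind a copy of themselves on the next cell, and CD48 instead is a ligand of CD244 and of CD2. The tails of several carry tyrosine motifs that recruit SAP, an SH2 domain protein that brings in the kinase Fyn. When SAP is missing the same motifs can bind the phosphatases SHP-1, SHP-2 and SHIP-1. In the thymus, double-positive (CD4+CD8+) cells show SLAMF1 and SLAMF6 to each other, and this contact, with SAP, is needed for natural killer T cells to develop.

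After 24 h of 4OHT *Slamf6* and *Cd84* rose 1.83-fold and 1.66-fold, no member passed the test in the other direction, and 8 members did not pass it. A gene was called higher or lower at a Benjamini-Hochberg adjusted p under 0.05 from limma, with the adjustment over all 35556 probe sets. By that rule 1.23% of the 19938 genes were higher and 2.99% lower. Nothing is read from the 2 of 10 against this background, because the family was chosen with the same contrast known. Both 4OHT arrays lay above both EtOH arrays for 7 members and below them for 1, while for 32.1% and 24.5% of all genes the arrays were apart in these directions. The median log2 fold change of the members was 0.22, beside 0.03 over all genes. For the same reason nothing is read from these array counts or from the median.

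**Figure D1:**
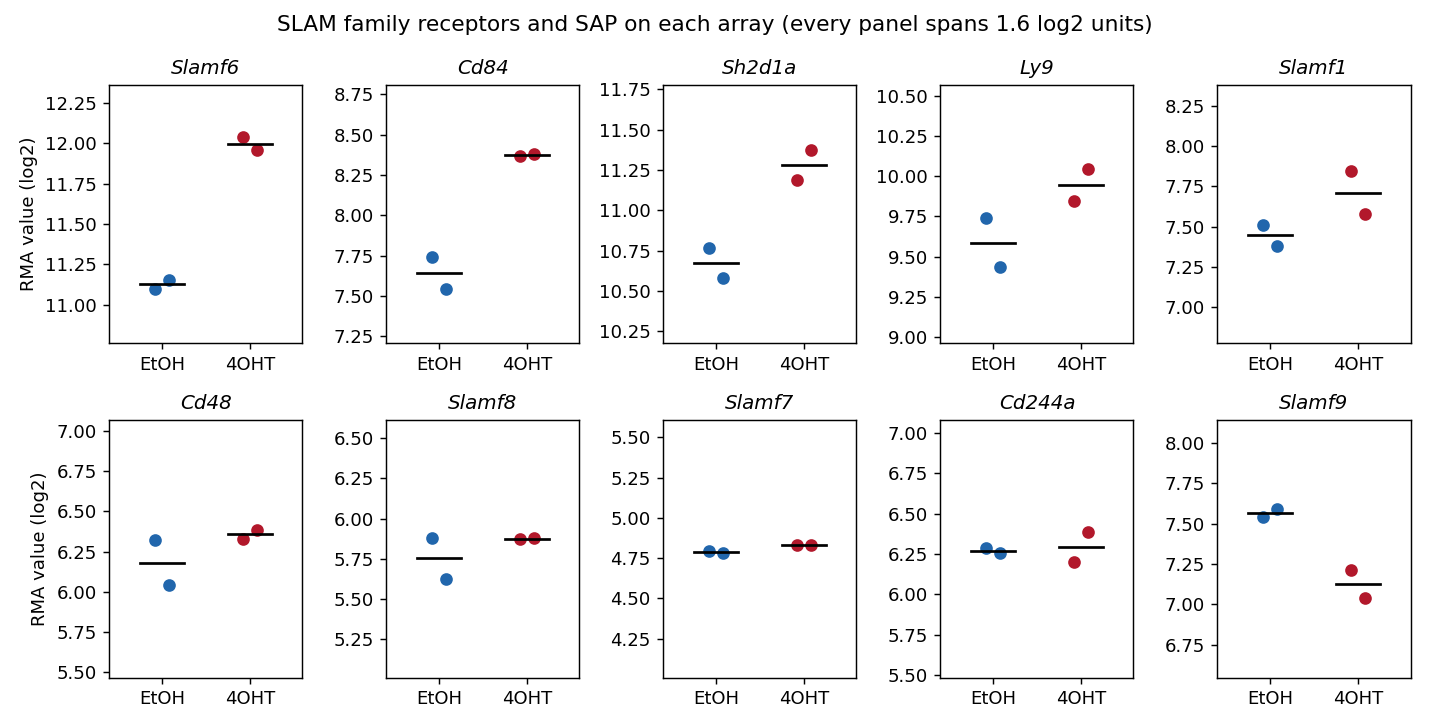
Deposited RMA expression values (log2) of the 10 genes on each array, with EtOH in blue, 4OHT in red and the mean of each pair as a black line. Every panel spans the same 1.6 log2 units. The widest gaps between treatments are those of *Slamf6* and *Cd84*, where the nearest arrays are 0.80 and 0.63 apart, whereas the arrays of *Cd244a* and *Slamf8* overlap.

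*Slamf6* encodes SLAMF6 (Ly108), a receptor that binds itself and signals through SAP in thymocytes. Its log2 values were 11.10 and 11.15 on the EtOH arrays and 12.04 and 11.96 on the 4OHT arrays. Each pair of replicates was thus much closer than the treatments were. Its mean was higher by 0.87 on the log2 scale (standard error 0.076, 95% interval 0.67 to 1.07), with an adjusted p of 0.0172 from limma. RefSeq places the non-coding gene *Gm37065* over the start of *Slamf6*, and whether the probes read it was not tested.

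*Cd84* encodes CD84, another receptor that binds itself and recruits SAP. Its log2 values were 7.74 and 7.54 with EtOH and 8.37 and 8.38 with 4OHT. The 4OHT arrays were nearly equal, and both stood well above the higher EtOH array. *Cd84* was thus higher by 0.73 on the log2 scale (standard error 0.094, 95% interval 0.49 to 0.98), with an adjusted p of 0.0361 from limma. Each of these calls was lost when any 1 of the 4 arrays was left out. The log2 fold change was then 0.83 to 0.91 for *Slamf6* (adjusted p between 0.0586 and 0.149 from limma) and 0.64 to 0.83 for *Cd84* (adjusted p between 0.0997 and 0.173 from limma).

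Of the SAP family, *Sh2d1a* had log2 values of 10.77 and 10.58 with EtOH and of 11.19 and 11.37 with 4OHT. The treatments did not overlap, the nearest arrays being 0.42 apart. The log2 fold change was 0.61, a 1.52-fold higher mean (standard error 0.11, 95% interval 0.31 to 0.90), and *Sh2d1a* did not pass the test (adjusted p = 0.0744 from limma). It passed it when the fit held only probe sets whose mean reached 6 on the log2 scale (adjusted p = 0.0498 from limma). It also passed among those with 1 gene symbol (adjusted p = 0.00183 from limma). How many of all genes passed in these 2 fits was not counted. With the replicate number as a block *Sh2d1a* did not pass (adjusted p = 0.171 from limma). Without any 1 array its log2 fold change was 0.51 to 0.70. The adaptors related to SAP, EAT-2 (*Sh2d1b1*) and ERT (*Sh2d1b2*), act mainly in natural killer and myeloid cells. *Sh2d1b1* had log2 values of 4.23 and 4.37 with EtOH and 4.32 and 4.57 with 4OHT, and *Sh2d1b2* of 4.48 and 4.50 against 4.24 and 4.17. *Sh2d1b1* thus differed by 0.14 and *Sh2d1b2* by −0.28 on the log2 scale (limma, adjusted p = 0.569 and 0.143). None of these 3 adaptor genes was called, where 1.23% of all genes were called higher and 2.99% lower. *Sh2d1b2*, like *Sh2d1a*, passed the test in the fit of single-symbol probe sets (limma, adjusted p = 0.0424), there as lower. With the replicate number as a block *Sh2d1b2* did not pass (limma, adjusted p = 0.267). The values of *Sh2d1b1* and *Sh2d1b2* lie far below the array medians (7.11 to 7.16), and without detection calls they could not be told from background.

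The other receptors whose tails bind SAP showed smaller differences, and none passed the test. *Ly9* encodes SLAMF3, a receptor that binds itself and is present on most T and B cells. Its log2 values were 9.74 and 9.44 with EtOH and 9.84 and 10.04 with 4OHT. The treatments were 0.11 apart at their nearest arrays, less than the 0.30 between the EtOH arrays. Its log2 fold change of 0.36 had a wide interval (95% interval −0.00 to 0.71) and an adjusted p of 0.275 from limma. *Slamf1*, which encodes the founding receptor of the family (SLAM, CD150), had log2 values of 7.51 and 7.38 with EtOH and 7.85 and 7.58 with 4OHT. Here too the nearest arrays were only 0.06 apart (log2 fold change 0.27, 95% interval −0.05 to 0.58, adjusted p = 0.339 from limma). *Cd244a* encodes 2B4, a receptor for CD48 on natural killer cells and some T cells. Its log2 values of 6.29 and 6.26 with EtOH lay between those with 4OHT, 6.20 and 6.39. The log2 fold change was 0.02 (95% interval −0.22 to 0.26, adjusted p = 0.919 from limma).

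*Cd48*, the gene of the ligand that 2B4 and CD2 share, had log2 values of 6.32 and 6.04 with EtOH and 6.33 and 6.38 with 4OHT. The higher EtOH array was almost level with the lower 4OHT array (log2 fold change 0.18, 95% interval −0.13 to 0.48, adjusted p = 0.483 from limma). *Slamf7* encodes CRACC, a receptor that works through EAT-2 rather than SAP. It was dim on every array, at 4.79 and 4.78 with EtOH and 4.83 and 4.83 with 4OHT. The log2 fold change was 0.04 (95% interval −0.14 to 0.22, adjusted p = 0.786 from limma).

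SLAMF8 and SLAMF9 have short tails without the SAP-binding motifs and are known mainly from myeloid cells. *Slamf8* had log2 values of 5.88 and 5.63 with EtOH and 5.87 and 5.88 with 4OHT, so that the treatments overlapped (log2 fold change 0.12, 95% interval −0.16 to 0.41, adjusted p = 0.602 from limma). *Slamf9* was the 1 member with lower values after 4OHT, at 7.54 and 7.59 with EtOH and 7.21 and 7.04 with 4OHT. Its arrays did not overlap, yet it did not pass the test (log2 fold change −0.44, standard error 0.092, 95% interval −0.68 to −0.20, adjusted p = 0.0945 from limma). In the fit over probe sets with 1 gene symbol it did (adjusted p = 0.00724 from limma), but the share of all genes that passed there was not counted. It did not pass with the replicate number as a block or with an intensity trend (adjusted p = 0.190 and 0.110 from limma). Without any 1 array its log2 fold change was −0.53 to −0.35. For *Cd244a*, *Cd48*, *Slamf7* and *Slamf8* both treatment means lay below the array medians. Without detection calls it is not known whether any of them was at background, where a change could not have been seen.

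**Figure D2:**
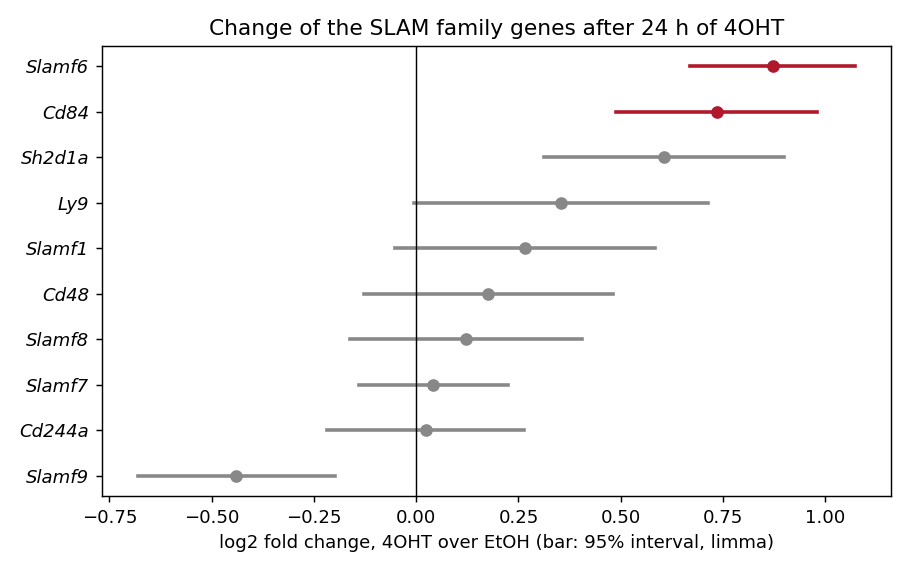
Log2 fold change (4OHT over EtOH) of the 10 genes in order of size, with the 95% interval from limma, which is not adjusted for the number of genes. Red marks the 2 genes past the test and grey the other 8. *Sh2d1a*, at 0.61, is the gene next to the 2 that passed, and *Slamf9*, at −0.44, lies alone below 0.

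The SLAM genes also share their place in the genome. In the RefSeq gene order 9 of the 10 members lie on chromosome 1, and *Sh2d1a* lies on the X chromosome. From *Cd244a* over *Ly9*, *Slamf7*, *Cd48*, *Slamf1* and *Cd84* to *Slamf6* the members follow each other without another measured gene between them, and *Slamf9* and *Slamf8* come further along. The 2 genes that rose, *Cd84* and *Slamf6*, are next to each other at one end of this run. *Slamf1*, on the other side of *Cd84*, and *Vangl2*, a planar cell polarity gene beyond *Slamf6* (log2 fold change 0.10, adjusted p = 0.681 from limma), did not pass the test. Between the first and the last SLAM gene 26 genes were measured, and none of the 17 that are no members was called. Their log2 fold changes ran from −0.19 to 0.25, with a median of 0.06. None of the 19 measured genes among the 10 protein-coding genes on either side was called. Over all genes 1.23% were called higher and 2.99% lower, so that an absence of calls among so few neighbours is ordinary.

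**Figure D3:**
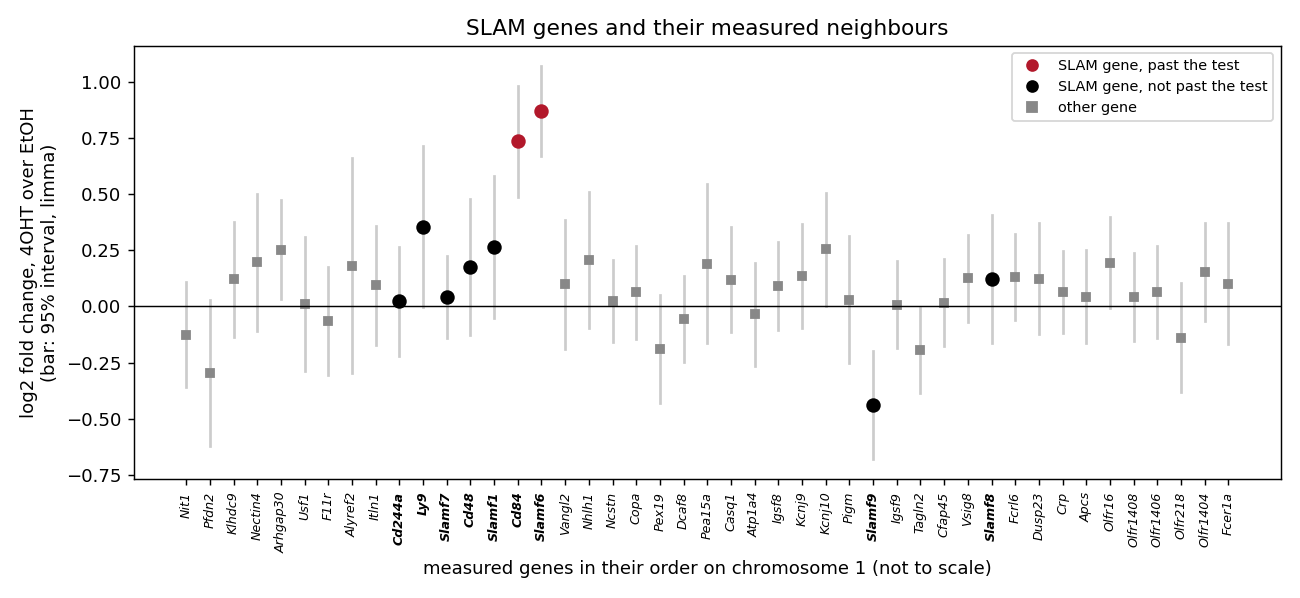
Log2 fold change (4OHT over EtOH, with the 95% interval from limma) of 45 measured genes in their order along chromosome 1, which is not to scale. Circles are SLAM genes, red where past the test, and grey squares are other genes. *Cd84* (0.73) and *Slamf6* (0.87) stand side by side above all other genes of the stretch, of which none but these 2 was called. Over all genes 1.23% were called higher and 2.99% lower.

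Because *Cd84* and *Slamf6* are neighbours that rose together, the 250 bases upstream of their RefSeq starts are shown, and those of *Slamf9*, whose values were lower, for contrast. They are read 5′ to 3′ from RefSeq (GRCm38.p6), all on the plus strand, at chr1:171839447-171839696 for *Cd84*, chr1:171917212-171917461 for *Slamf6* and chr1:172475110-172475359 for *Slamf9*. Capitals mark GGAA or its reverse complement TTCC, the core of the motif that the study attributes to Ikaros. The study also names GGGA as a putative Ikaros motif. It was neither marked nor counted here, although each stretch shown holds it or its reverse complement TCCC.
Cd84: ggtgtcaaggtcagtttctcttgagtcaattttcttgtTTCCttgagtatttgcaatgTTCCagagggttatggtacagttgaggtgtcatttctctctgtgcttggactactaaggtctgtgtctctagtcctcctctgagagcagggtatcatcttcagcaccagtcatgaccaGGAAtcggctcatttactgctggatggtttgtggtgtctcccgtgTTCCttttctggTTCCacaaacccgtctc
Slamf6: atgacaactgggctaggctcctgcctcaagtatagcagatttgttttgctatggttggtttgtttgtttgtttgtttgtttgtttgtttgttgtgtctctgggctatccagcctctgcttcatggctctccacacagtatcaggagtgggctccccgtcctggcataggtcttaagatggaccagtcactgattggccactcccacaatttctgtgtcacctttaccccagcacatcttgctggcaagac
Slamf9: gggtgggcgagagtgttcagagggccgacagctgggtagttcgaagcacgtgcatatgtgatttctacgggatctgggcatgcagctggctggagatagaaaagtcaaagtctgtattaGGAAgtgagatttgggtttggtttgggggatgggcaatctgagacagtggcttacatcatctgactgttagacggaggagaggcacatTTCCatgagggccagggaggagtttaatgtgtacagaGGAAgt
The core occurred 5 times upstream of *Cd84*, 3 times upstream of *Slamf9* and 0 times upstream of *Slamf6*. It is short, and 93.4% of the 32851 RefSeq promoters searched over the same length hold it at least once, with a median of 3 matches. With the longer form AGGAA, which overlaps the core (reverse complement TTCCT), *Cd84* had 3 matches, *Slamf9* 2 and *Slamf6* 0, and 60.3% of promoters held it. Among the members without a call *Slamf1* had 5 core matches, *Slamf7* 4, *Cd244a* 3, *Cd48* 2 and *Slamf8* 1, so that the 2 genes that rose hold both the fewest and, together with *Slamf1*, the most. A match is only a run of letters in this window and not a site of binding, and its absence says nothing of sites elsewhere. Of the 10 members 8 were matched in the promoter table.

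Genes that act with SLAM receptors were taken from lists of their signalling partners. Of 19 measured genes among 20 kinases, phosphatases and adaptors, 1 rose, 1 fell and 17 did not pass the test. By the same test 1.23% of all genes were higher and 2.99% lower. The kinase gene *Lck*, also on the list, had no probe set of a single symbol. The median log2 fold change of the list was 0.02 (0.03 over all genes). The 1 that rose was *Inpp5d*, which encodes the phosphatase SHIP-1, with log2 values of 7.71 and 7.59 with EtOH and 8.63 and 8.45 with 4OHT. This was a 1.85-fold increase (0.89 on the log2 scale with a standard error of 0.10, limma adjusted p = 0.0279). *Fyn*, the kinase that SAP recruits, fell from log2 values of 11.03 and 11.14 to 10.50 and 10.47. This was a 1.51-fold decrease (−0.60 on the log2 scale with a standard error of 0.079, limma adjusted p = 0.0379). For both genes the replicates were closer to each other than to either array of the other treatment. Their calls, too, were lost without any 1 array, at log2 fold changes of 0.80 to 0.98 for *Inpp5d* and −0.66 to −0.54 for *Fyn* (adjusted p between 0.0723 and 0.202 from limma). Of the genes with the highest means that did not pass, *Ptprc*, which encodes the phosphatase CD45, was 0.50 higher on the log2 scale (limma, adjusted p = 0.0606). It passed the test with a minimum mean of 6, among probe sets with 1 gene symbol and with an intensity trend (limma, adjusted p = 0.0418, 0.00247 and 0.0346). With the replicate number as a block it did not (limma, adjusted p = 0.130). The adaptor gene *Lat* had one of 0.27, *Lcp2* (SLP-76) one of 0.03 and *Csk*, a kinase gene, one of −0.21, with adjusted p of 0.164 to 0.877 from limma. The genes of the phosphatases SHP-1 (*Ptpn6*) and SHP-2 (*Ptpn11*), named here for their role after their values were seen, had log2 fold changes of −0.29 and −0.02 (adjusted p = 0.182 and 0.927 from limma).

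CD2, an adhesion receptor for which CD48 is the ligand in the mouse, was tested with 3 cytoplasmic partners. *Cd2* rose 4.75-fold, from log2 values of 8.01 and 8.06 to 10.21 and 10.36 (log2 fold change 2.25, adjusted p = 0.00559 from limma; 0.110 and 0.122 without EtOH replicate 1 and 2). *Pstpip1* (log2 fold change 0.49), *Cd2ap* (−0.31) and *Cd2bp2* (−0.13) did not pass the test, with adjusted p of 0.0531 to 0.449 from limma. *Pstpip1* passed it after repeated quantile normalization, with a minimum mean of 6 and in the fit of single-symbol probe sets (limma, adjusted p = 0.0428, 0.0367 and 0.0022). In the last of these fits *Cd2ap* passed it too, as lower (limma, adjusted p = 0.0486). With the replicate number as a block *Pstpip1* and *Cd2ap* did not pass (limma, adjusted p = 0.137 and 0.300). None of 9 measured transcription factor genes of innate-like thymocytes, such as natural killer T cells, was called. Over all genes 1.23% were called higher and 2.99% lower. Of the 9 genes 4 had an unadjusted p under 0.05 from limma, as had 4069 of the 19938 genes. The brightest of the 9 were *Tcf12* (log2 fold change 0.11), *Myb* (−0.04), *Gata3* (−0.22) and *Bcl6* (0.44), none past the test. *Bcl6* passed it in the fit of single-symbol probe sets (limma, adjusted p = 0.0196) but not with the replicate number as a block (limma, adjusted p = 0.153). *Zbtb16*, the gene of the natural killer T cell factor PLZF, was added for its role after its values were seen. It lay below the array medians at 6.55 and 6.40 with EtOH and 6.80 and 6.74 with 4OHT. Its log2 fold change was 0.29 (limma, adjusted p = 0.180). The adjusted p was 0.0480 among probe sets with 1 gene symbol and 0.256 with the replicate number as a block (limma).

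**Figure D4:**
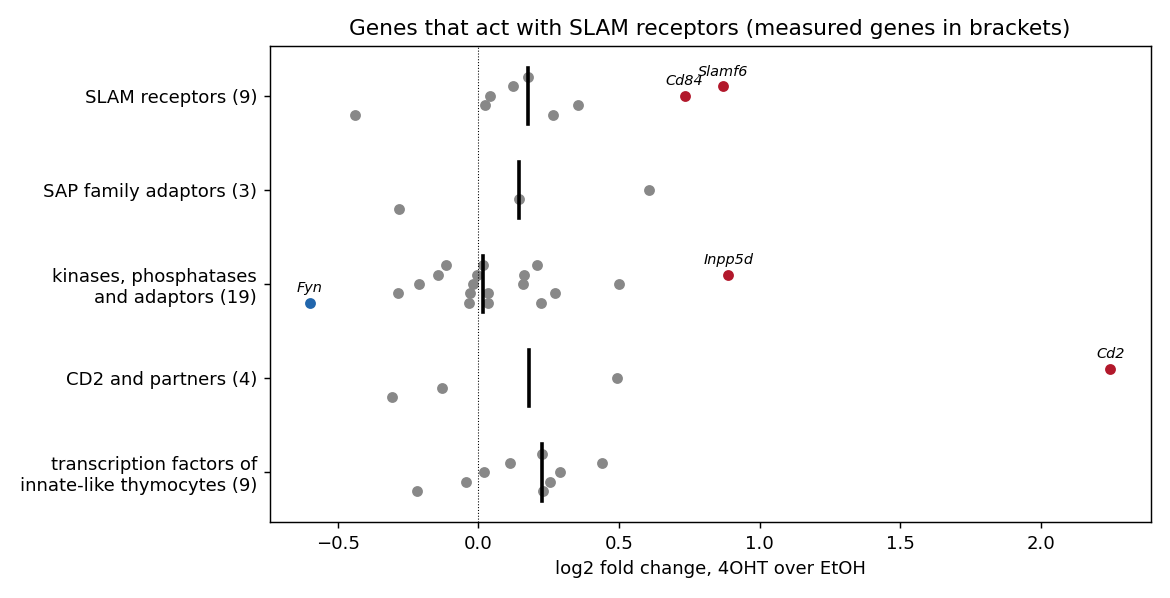
Log2 fold change (4OHT over EtOH) of each measured gene of the 5 lists, red if called higher, blue if called lower and grey if not called, with black bars at list medians. *Cd2* lies furthest to the right at 2.25, *Slamf6*, *Cd84* and *Inpp5d* lie between 0.73 and 0.89, and *Fyn* at −0.60 is the only called gene below 0.

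Likeness was taken as the distance between array values after each gene's mean was taken off, without gene models (Gm, LOC) and Rik symbols. The genes whose 4 values were most like those of *Slamf6* were then *Slc7a11* (distance 0.030 on the log2 scale), *Skap1* (0.036) and *Slc43a2* (0.039). The nearest to *Slamf9* were *Ogfod3* (0.018), *Dab2ip* (0.025) and *Lax1* (0.035). With 4 arrays such a likeness mainly says that the size of change was alike.

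The defining T-cell transcripts were bright, with mean log2 values of 13.29 for *Cd3e* and 12.94 for *Thy1* in EtOH-treated cells. Of the 5 measured genes of their list 1 fell (*Cd3d*), and the list mean moved from 12.18 on both EtOH arrays to 11.87 and 11.92 with 4OHT. Of a list taken for double-positive thymocytes 3 of 7 measured genes rose (*Cd4*, *Cd8a* and *Cd8b1*) and *Dntt* fell. Over all genes 1.23% were called higher and 2.99% lower. The mean of the double-positive list moved from 9.66 on both EtOH arrays to 10.83 and 10.85 with 4OHT. Not all of that list is particular to the stage, as the study shows *Ptcra* as an active gene in earlier, CD4−CD8− thymocytes. The median log2 fold change of that list was only 0.21, with *Cd8a* at 4.32, *Cd8b1* at 2.68 and *Cd4* at 2.34, and with *Rag1* (0.21), *Rag2* (0.01) and *Ptcra* (−0.27), genes of antigen receptor formation, not called. The natural killer cell list, of which 5 of 6 genes lay below the array medians in both treatments and none was called (2 at an unadjusted p under 0.05, against 4069 of all 19938 genes), had means of 5.31 and 5.20 with EtOH and 5.52 and 5.49 with 4OHT. The median log2 fold change of this list was 0.10, with *Prf1*, the perforin gene, at 0.86 (limma, adjusted p = 0.0605). All 4 measured B-cell genes lay below the medians and none was called, with list means of 5.68 to 5.81 against 5.87 to 5.91. Of 6 myeloid genes 5 lay below the medians, *Itgam* rose and *Lyz2* fell, with list means of 6.09 to 6.13 against 6.04 to 6.08. No erythroid or platelet gene among 3 was called. The part of such cells in the SLAM results was not tested. In such bulk RNA a higher share of cells that hold a transcript and more of it per cell cannot be told apart. *Ikzf1*, the gene of Ikaros, differed by 0.07 on the log2 scale (limma, adjusted p = 0.698), and whether its probes read Ik1-ER was not tested. The labels do not give separate cultures for the 2 samples of a treatment. The p-values then reflect the spread of these samples alone, and this spread may be technical. With 2 arrays a treatment, the smallest two-sided p of an exact permutation test is 0.33.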

How the data were processed

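Transcripts were measured on 4 Affymetrix Mouse Gene ST arrays, 2 per treatment, from 150 ng of total RNA each. Per the labels, the deposited log2 values of all 35556 probe sets were made with Affymetrix Expression Console 1.1 and RMA (submitters' processing notes). RMA brings the arrays to near-equal distributions (medians 7.11 to 7.16) and narrows the differences of dim probe sets. A genome build for the arrays is not given in the sources read.

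Gene symbols came from the array annotation and were updated by Entrez number through RefSeq (GRCm38.p6). Treatments were compared with limma 3.58.1 in R 4.3.3 over all probe sets (lmFit and eBayes, two-sided, no filter, 2 residual and 2.66 prior degrees of freedom), with Benjamini-Hochberg adjustment. The scripts were tested on simulated data. How few arrays there were limits the precision.

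The members, gene lists and markers were chosen with earlier results of these data known. Named by rule were all members, called pathway genes with up to 4 bright ones per list, called chromosomal neighbours, *Ikzf1* and the 3 genes most like the members with the largest positive and negative change. *Ptpn6*, *Ptpn11*, *Zbtb16* and the uncalled neighbour *Vangl2* were added outside this rule. Alternatives were the replicate number as a block, repeated quantile normalization, equal medians, a minimum mean of 6, probe sets with 1 symbol, an intensity trend, gene means, leaving out each array, and stricter thresholds.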

Additional observations from a re-analysis of the deposited data

How the results depend on the processing

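Of the 10 members 2 were called higher and 0 lower, and 2 stayed higher after repeated quantile normalization, equal medians, an intensity trend or gene means. With a minimum mean of 6 or probe sets with 1 symbol 3 were higher, and in the latter 1 was lower. At the same log2 fold change, the latter fit moved the unadjusted p of *Slamf6* from 0.000139 to 6.19e-07 (limma). That of *Cd2*, no member, moved from 3.22e-06 to 7.81e-11 (limma). The share of all genes called in these 2 fits was not counted, so passes in them cannot be read as particular to a gene. With all probe sets, at an adjusted p under 0.01 or with an absolute log2 fold change of at least 1, 0 were called higher. Without any 1 array the number called higher was 0 to 0, in fits with 1 residual degree of freedom where the lone array is assumed to vary like the other treatment. With the replicate block 0 members were higher, and the calls of *Inpp5d* (limma, adjusted p = 0.0700) and *Fyn* (0.111) were lost too, while *Cd2* kept its call (0.0384). The shared numbers are not shown to pair the samples (correlation of same-numbered deviations −0.13). With crossed numbers as the block, chosen after seeing the data, 1 was higher.

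Directions turned for 5 genes near 0 that were not called. After repeated quantile normalization the log2 fold change was −0.028 for *Cd244a* and 0.023 for *Ptpn11*. Without any 1 array it was −0.068 to 0.11 for *Cd244a*, −0.0046 to 0.25 for *Slamf8*, −0.095 to 0.057 for *Ptpn11*, −0.056 to 0.12 for *Lcp2* and −0.026 to 0.22 for *Vangl2*. The cause was not tested. The number of arrays and the lack of detection calls limit what dim genes can show.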
